A study of Caenorhabditis elegans with 119 samples.

Results

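The glutathione S-transferase genes of Caenorhabditis elegans described here are 7 in number: gst-5, gst-12, gst-24, gst-31, gst-35, gst-37 and gst-39. They were selected on their measured RNA levels and named as inducible by sulforaphane (SFN). In wild-type worms their RNA was higher on SFN than on the solvent DMSO at each of 5 ages. The exact cutoff that picked them is not given here. These 7 were found by their gene identifiers among 49 annotated glutathione S-transferases (GSTs) and 46926 genes in all. The wild-type response is therefore treated as having chosen them and is given as a description, with no test. Tests were kept for libraries outside that wild-type comparison, those of the mutant strains and of further wild-type controls. The genes were picked with earlier results of these data known. Whether those results drew on these libraries is not known, so the p-values are not taken as independent of the choice.

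RNA came from whole adults in 119 libraries of about 50 worms each. In N2, the wild-type strain, worms on SFN and worms on DMSO were sampled at days 2, 4, 8, 12 and 16 of adulthood, with 4 libraries per group. EU1 carries skn-1(zu67) and PX991 carries daf-16(fx107). Both were sampled on SFN and on DMSO at days 4 and 12, with 4 libraries per PX991 group, 6 per EU1 group and 5 for EU1 on SFN at day 4. A further 40 N2 libraries, from trials 2 and 3, were from worms on DMSO alone at the same 5 ages. All worms were kept at 20 °C on Escherichia coli OP50-1 with 51 µM FUdR, which blocks the growth of progeny, and 0.25% DMSO, from day 1 of adulthood. The labels used here give neither the SFN concentration, nor whether EU1 worms were homozygous, nor what the fx107 change is. In whole-worm RNA, fewer cells of a type and less RNA per cell cannot be told apart.

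Glutathione S-transferases join the tripeptide glutathione to reactive electrophiles, which makes them more soluble and ready for export by membrane pumps. SFN is an isothiocyanate from broccoli, an electrophile that is itself conjugated to glutathione. In mammals it activates the transcription factor Nrf2, whose worm relative SKN-1 is held down by the adaptor WDR-23 and is best known for driving detoxification genes in the intestine. DAF-16, the worm FOXO factor, acts downstream of insulin signalling and controls many stress genes.

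Total counts per library ran from 2056562 to 10286438 in EU1, from 585309 to 5460987 in PX991, from 444501 to 12536097 in the N2 treatment table and from 1071727 to 8611922 in trials 2 and 3. A pair of N2 DMSO libraries stood furthest apart with few genes detected. Day 4 replicate 4 had 444501 counts in 6660 genes, and day 2 replicate 1 had 705162 counts in 7177 genes. Others of these groups were also low for their depth, with 4093687 counts in 10720 genes for day 2 replicate 4. Day 4 replicate 2 had 2936059 counts in 10350 genes, while N2 SFN day 2 replicate 1 had 1164042 counts in 12360 genes. skn-1 itself was at 97.0 to 126 CPM (read counts scaled to library size, with the trimmed mean of M-values within a table) in the EU1 group means, against 243 to 302 CPM in the N2 treatment table. daf-16 was at 97.8 to 161 CPM in the PX991 group means, against 140 to 242 CPM in the N2 treatment table, which was scaled separately.

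Each of the 7 genes has 2 exons and a coding length of 621 to 654 bases. In the genome build WBcel235, gst-5 (WBGene00001753) lies on chromosome II from 10950352 to 10951603. It shares 12 of its 725 exonic bases with nos-1 on the opposite strand, and reads there could not be assigned to a strand. Of the 7 genes, 5 sit in a pair of dense GST runs on the same chromosome. gst-24 (WBGene00001772, 13610443 to 13611366) and gst-12 (WBGene00001760, 13616682 to 13618061) belong to a run of 9 GST genes within 22734 bases. A second run of 9 within 21573 bases holds gst-39 (WBGene00001787, 15171163 to 15171916), gst-31 (WBGene00001779, 15174229 to 15174965) and gst-35 (WBGene00001783, 15183807 to 15185389). gst-37 (WBGene00001785) stands alone on chromosome V from 1921621 to 1922381, with its nearest GST, gst-21, 189602 bases away. Genes of such runs can be similar enough to share reads, so single members are uncertain.

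In N2, the 7 genes fell into an abundant pair and 5 genes that were scarce without SFN. gst-24 was the most abundant on DMSO. On SFN it had 300, 320, 263 and 234.6 CPM at day 2, against 154, 150, 142.4 and 148 CPM on DMSO. At day 12 it had 474, 378, 349 and 313 CPM on SFN, against 42.1, 41.8, 35.5 and 42.1 CPM on DMSO. No SFN library overlapped a DMSO library at either age, and the wider gap at day 12 came with a lower DMSO level as well as a higher SFN level. gst-5 had 230, 178, 204 and 204 CPM on SFN at day 2, against 50.9, 28.96, 20.97 and 15.9 CPM on DMSO. Its day 12 levels were 351, 329, 330 and 326 CPM on SFN, against 12.9, 9.64, 10.9 and 7.91 CPM on DMSO.

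The other 5 genes were at a few CPM or less on DMSO at every age. gst-39 averaged 17.8 ± 3.9, 13.1 ± 2.6, 24.4 ± 4.8, 40.9 ± 4.2 and 50.5 ± 14.3 CPM on SFN at days 2, 4, 8, 12 and 16 (SD, n = 4 each), against 4.23 ± 3.26, 3.05 ± 2.39, 6.27 ± 1.05, 2.97 ± 0.92 and 2.87 ± 1.67 CPM on DMSO. gst-12 averaged 8.97 ± 3.15, 7.47 ± 0.73, 12.5 ± 2.2, 36.1 ± 4.8 and 55.1 ± 16.4 CPM on SFN at the same ages, against 1.00 ± 1.16, 2.29 ± 2.75, 1.5 ± 0.47, 1.72 ± 1.22 and 1.27 ± 0.52 CPM on DMSO. Both genes had their highest SFN levels at the oldest age, while their DMSO levels stayed under 7 CPM on average. gst-35 averaged 5.80 ± 2.83 CPM on SFN at day 2 and 25.5 ± 2.7 CPM at day 12, against 0.386 ± 0.485 and 0.572 ± 0.449 CPM on DMSO. gst-31 averaged 16.0 ± 1.6 CPM on SFN at day 2 and 50.2 ± 4.0 CPM at day 16, against 0.642 ± 1.283 and 1.03 ± 0.70 CPM on DMSO.

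gst-37 came closest to an on and off pattern. On SFN its 4 libraries at day 2 held 18, 23, 35 and 56 counts, or 12.1 ± 4.6 CPM, against 0 counts in all 4 DMSO libraries. With a floor of 3 counts over the DMSO group, that is at least 58.5-fold higher on SFN. At day 4 it had 104 counts on SFN against 1 on DMSO, a ratio of 146 (95% counting interval 25.6 to 5820), and at day 8 274 counts against 2, a ratio of 122 (33.4 to 1010). By day 16 it reached 53.8 ± 9.9 CPM on SFN, against 0.240 ± 0.479 CPM on DMSO, where all 10 counts came from 1 library. gst-31 at day 4 also had a nearly empty control, with 134 counts on SFN against 3 on DMSO and a ratio of 62.7 (21 to 308). These intervals cover counting error only. Some DMSO libraries of days 2 and 4 held few genes for their depth, and what part this has in the nearly empty controls was not tested.

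**Figure D1:**
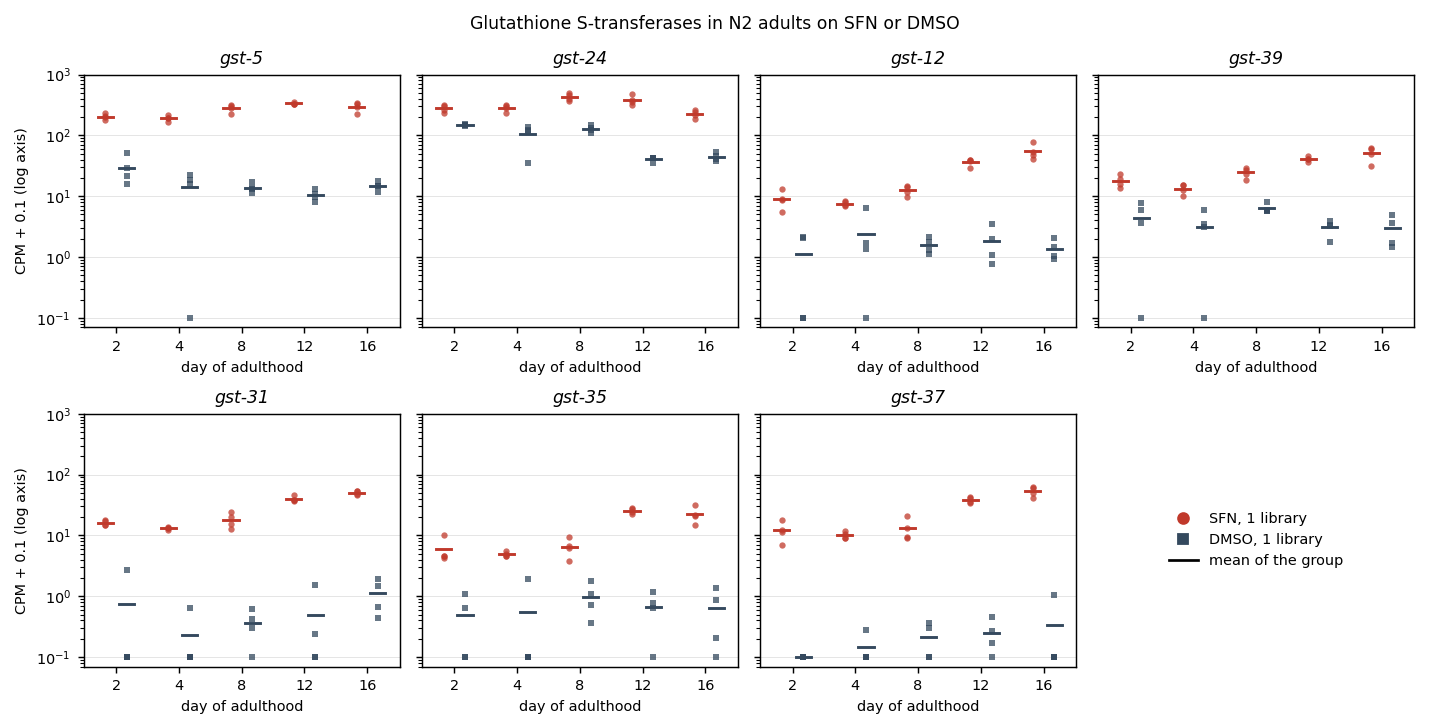
Level of each of the 7 genes in N2 by day of adulthood, in CPM + 0.1 on a log axis. Each point is 1 library, SFN in red circles on the left and DMSO in dark squares on the right at each age, and bars are group means. The SFN libraries lie above the DMSO libraries of their age in every panel, the closest pair being gst-12 at day 4 (lowest SFN library 6.78 CPM, highest DMSO library 6.29 CPM), and gst-37 on DMSO lies at or near the bottom of its axis.

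Fitted with edgeR over the 40 N2 libraries, the median log2 fold change of the 7 genes was 3.04, 2.84, 2.99, 5.02 and 5.38 at days 2, 4, 8, 12 and 16. The 30 other GSTs that could be fitted had medians of 0.37, 0.52, 0.86, 1.41 and 1.21. All 12735 genes had medians between -0.02 and 0.10. The share of all tested genes called higher on SFN (adjusted p under 0.05) was 2.7% at day 2, 7.06% at day 4, 2.84% at day 8, 13.8% at day 12 and 11.9% at day 16. All 7 genes were called at each age, as genes picked for a rise with SFN would be, so nothing is read from that count. Without the pair of DMSO libraries that held fewest genes, the medians were 3.12, 2.78, 2.96, 4.96 and 5.35.

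By fitted value, with no test between ages or between genes, the course of the response with age varied among the 7. gst-12 had a log2 fold change of 2.80 ± 0.55 (SE) at day 2, 1.55 ± 0.51 at day 4, 2.99 ± 0.47 at day 8, 4.38 ± 0.41 at day 12 and 5.39 ± 0.44 at day 16. gst-39 likewise had its highest value at day 16, with 1.80 ± 0.36, 1.76 ± 0.39, 2.00 ± 0.33, 3.77 ± 0.33 and 4.12 ± 0.34. gst-24 had the smallest value of the 7 at each of the 5 ages and peaked at day 12, with 0.91 ± 0.17, 1.32 ± 0.17, 1.77 ± 0.16, 3.23 ± 0.17 and 2.34 ± 0.17. At day 4 its value differed from that of gst-12 by less than the SE of gst-12. The day 4 value of gst-12 was 2.44 without DMSO replicate 2. gst-5 also peaked at day 12, with 3.04 ± 0.21, 3.51 ± 0.22, 4.33 ± 0.22, 5.02 ± 0.21 and 4.35 ± 0.20. gst-31 had 4.58 ± 0.65 at day 2 and 6.66 ± 0.54 at day 12, values set largely by single DMSO libraries. All 10 of its DMSO counts at day 2 were in replicate 4, and 16 of its DMSO counts at day 12 were in replicate 1. Without those libraries the fitted value was 9.51 at day 2 and 9.04 at day 12, and at day 4 it was 5.85, or 9.20 without DMSO replicate 1.

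The choice of these 7 left close neighbours outside. Among the 7, the lowest fitted values were 0.91 at day 2 and 1.32 at day 4, both of gst-24. gst-14, which lies 581 bases from gst-12, also passed at all 5 ages in the fit used here, though it was not among the genes picked, with 2.25 ± 0.54 at day 12 and 3.61 ± 0.53 at day 16. It had no counts on DMSO at days 2 and 4 and was scarce up to day 12, at 2.56 ± 1.19 CPM on SFN at day 12, against 0.511 ± 0.298 CPM on DMSO. gst-4, gst-33 and gstk-1 passed at 4 of 5 ages. gst-4, a widely used reporter of SKN-1 activity whose locus overlaps dhs-12 on the same strand, missed at day 4 with 0.85 ± 0.29, while gst-33 and gstk-1 missed at day 2 with 1.14 ± 0.68 and 0.37 ± 0.23.

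Position in a run and response went only partly together. At day 12 in N2, the 6 fitted genes of the first run had log2 fold changes of 1.65 for gst-20, 3.23 for gst-24, 1.41 for gst-15, 2.25 for gst-14, 4.38 for gst-12 and 2.76 for gst-16, in their order along the chromosome. gst-19, gst-17 and gst-18 at the end of that run had too few counts to be fitted. gst-24 and gst-15, with their different values, are 403 bases apart. In the second run the values were 2.63 for gst-26, 1.98 for gst-27, 1.13 for gst-28, 3.84 for gst-29, 3.77 for gst-39, 6.66 for gst-31 and 5.38 for gst-35, and gst-32 and gst-34 could not be fitted.

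**Figure D2:**
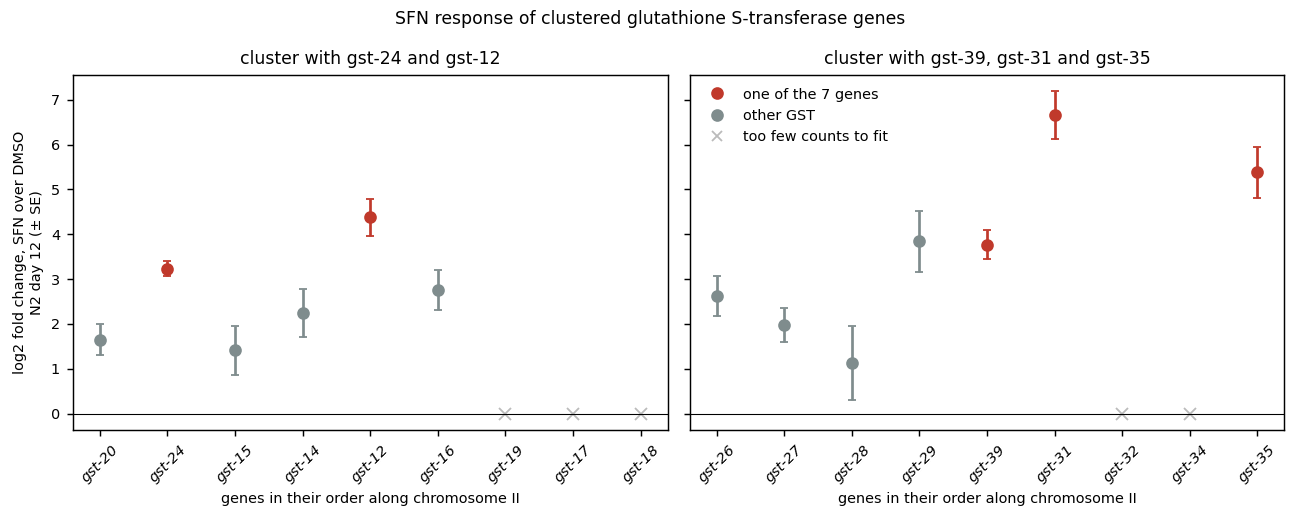
Log2 fold change of SFN over DMSO in N2 at day 12, with SE, for the genes of both GST runs in their order along chromosome II. Red points are among the 7 genes, grey points are other GSTs and crosses mark genes with too few counts to fit; every fitted gene of both runs lies above 0, and gst-31 has the highest value.

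Counted per length, the 7 genes took up a large part of all GST RNA on SFN. Summed as CPM per kilobase of exon, they made up 41.3 ± 1.2, 43.3 ± 0.7, 48.6 ± 2.2, 57.8 ± 1.9 and 55.1 ± 1.5% of the total of the 49 GSTs in N2 on SFN at days 2, 4, 8, 12 and 16 (SD, n = 4 each). On DMSO the shares were 20.97 ± 2.04, 16.3 ± 6.8, 22.9 ± 3.0, 12.4 ± 0.4 and 15.1 ± 1.8%. gst-24 alone held 71.3% of the summed level of the 7 on DMSO at day 12, and gst-5 held 18.7%. On SFN at that age gst-24 held 41.6% and gst-5 held 37.7%. In the mutants the share was 38.4 ± 5.5% on SFN (n = 5) against 25.98 ± 4.70% on DMSO (n = 6) in EU1 at day 4, and 45.4 ± 5.6% against 13.8 ± 1.8% at day 12 (n = 6 each). In PX991 it was 33.99 ± 2.87% on SFN against 16.8 ± 2.1% on DMSO at day 4, and 47.3 ± 7.8% against 26.3 ± 4.8% at day 12 (n = 4 each).

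**Figure D3:**
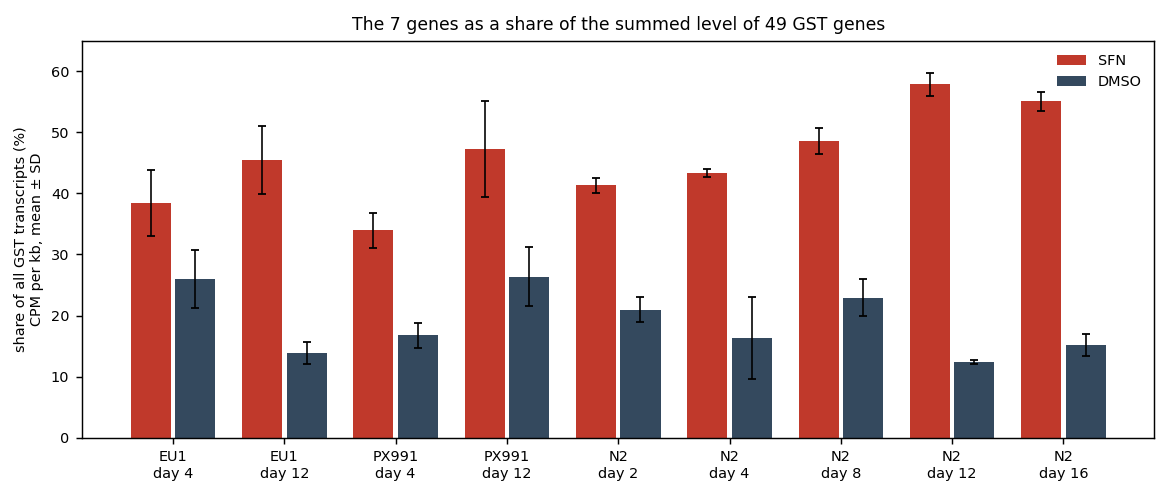
Share of the 7 genes in the summed level of all 49 GST genes (CPM per kilobase, in percent), as the mean of each group with SD, SFN in red on the left and DMSO in dark on the right. The bars start at 0; the SFN share is above the DMSO share in each of the 9 pairs, and the widest gap is that of N2 at day 12, with 57.8% on SFN and 12.4% on DMSO.

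Markers of tissues moved with SFN in some of the same libraries. All 8 muscle markers were higher on SFN in N2 at day 12, and their summed level was 860 to 1241 CPM on SFN, against 278 to 354 CPM on DMSO. At day 4, 7 of 8 muscle markers were higher, with sums of 1635 to 1924 CPM on SFN, against 626 to 1372 CPM on DMSO. At that age 2 of 8 intestine markers were higher too, with sums of 2109 to 3344 CPM on SFN, against 1103 to 1965 CPM on DMSO. Of the 8 intestine markers, 2 were higher at day 12, with sums of 1173 to 1581 CPM on SFN, against 655 to 1009 CPM on DMSO. None of these muscle and intestine markers was at 0 in those groups. Neuron sums at day 4 were 361 to 395 CPM on SFN, against 215 to 321 CPM on DMSO, with 2 of 8 markers called higher. Hypodermis sums were 276 to 553.5 CPM on SFN against 160 to 255 CPM on DMSO at day 4, with 2 markers at 0 on DMSO. At day 12 they were 169 to 254 CPM against 79.4 to 96.3 CPM, and 1 of 5 tested was called higher at each of these ages. At day 8, 4 of 8 muscle markers were higher, with sums of 1296 to 1395 CPM on SFN against 735 to 990.4 CPM on DMSO, and 2 intestine markers, with sums of 2412 to 3142 CPM against 1672 to 1998 CPM. At day 16, 5 muscle markers were higher, with overlapping sums of 431 to 852 CPM on SFN against 343 to 473 CPM on DMSO. At that age 4 of 8 oocyte and germline markers were higher too, with sums of 5246 to 5975 CPM against 4305 to 4771 CPM, and 2 intestine markers were higher and 2 lower. At day 2 the sums overlapped, with muscle at 2712 to 3487 CPM on SFN against 2293 to 3313 CPM on DMSO and intestine at 2944 to 3827 CPM against 3168 to 4057 CPM. What part these shifts have in the GST values was not tested.

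The 40 N2 libraries of trials 2 and 3 gave the course of the genes without SFN in libraries outside the wild-type SFN comparison. gst-24 averaged 91.8 ± 18.4, 118 ± 50, 97.4 ± 29.03, 48.2 ± 8.4 and 68.4 ± 16.7 CPM at days 2, 4, 8, 12 and 16 in trial 2, and 107.8 ± 25.7, 88.8 ± 12.8, 57.5 ± 14.96, 52.7 ± 17.6 and 51.2 ± 8.3 CPM in trial 3 (SD, n = 4 each). Its level fell by 0.070 ± 0.013 per day on the log2 scale (edgeR adjusted p = 1e-05). Tissue markers were lower with age in the same libraries: intestine sums averaged 509.5 CPM at day 16 against 1880 CPM at day 2 in trial 2, and 178 against 3078 CPM in trial 3. Muscle sums averaged 702 CPM at day 16 against 2384 CPM at day 2 in trial 2, and 387 against 1949 CPM in trial 3. No marker of either list was at 0, and their part in the GST values was not tested. gst-5 averaged 8.33 ± 1.37, 8.67 ± 2.66, 5.66 ± 0.62, 7.63 ± 1.35 and 8.17 ± 3.68 CPM in trial 2, and 17.5 ± 7.1, 14.6 ± 4.9, 6.27 ± 3.83, 7.04 ± 1.78 and 9.61 ± 2.25 CPM in trial 3. The slope of gst-5, -0.041 ± 0.017 per day (adjusted p = 0.031), did not hold within trial 2 alone (-0.007, adjusted p = 0.78). It was also lost without replicate 3 of day 2 in trial 3 (adjusted p = 0.099).

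gst-39 had a slope of 0.027 ± 0.023 per day (adjusted p = 0.31) in the same model. Within trial 2 alone it rose with age by 0.08 per day (adjusted p = 0.034), while in trial 3 the value was -0.03 (adjusted p = 0.40), so the direction differed between trials. These were the 3 of the 7 genes with enough counts to be fitted, and 2 of them fell, in a fit where 67.7% of 10899 genes changed with age in either direction. gst-12, gst-31, gst-35 and gst-37 had group means no higher than 2.29 CPM in these libraries. gst-37 had 0 counts in 6 of the 10 groups.

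In EU1 at day 4, gst-5 and gst-37 rose with SFN and the other 5 genes did not pass. That is 2 of 7, where 0.197% of 11170 tested genes were called higher. gst-5 had 130, 149, 117, 153 and 133 CPM on SFN, while the 6 DMSO libraries ran from 6.94 to 25.6 CPM (median 13.1), with no overlap. The log2 fold change was 3.13 ± 0.30 (edgeR adjusted p = 7.1e-06), higher in 5 of 5 SFN libraries. How many of all genes were apart in this way is not given. gst-37 had 8, 3, 10, 17 and 11 counts on SFN, against 1 count in 6 DMSO libraries. The ratio was 45.8 (95% counting interval 7.85 to 1850), and the fitted value was 4.93 ± 0.99 (adjusted p = 0.032). With so few DMSO counts, gst-37 met the filter on low counts through its SFN libraries, and its p-value depends on that filter.

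That call for gst-37 was a narrow one. It was lost without DMSO replicate 1, 2, 4 or 6 or without SFN replicate 2, 4 or 6 of EU1 at day 4, with adjusted p from 0.051 to 0.078. It was also lost with the EU1 replicates 1 to 3 alone, which were collected together (adjusted p = 0.07). gst-31 had 3.37, 1.43, 1.14, 2.79 and 2.30 CPM on SFN, against 0 to 0.802 CPM on DMSO (median 0.344). These values do not overlap, and the difference of 2.46 ± 0.67 missed the threshold with edgeR (adjusted p = 0.10). It passed with DESeq2 (2.52, adjusted p = 0.039) and with no filter on low counts (2.49, edgeR adjusted p = 0.0044).

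gst-24, the abundant member, had 149, 175, 206, 256 and 231 CPM on SFN in EU1 at day 4, against 102 to 192 CPM on DMSO (median 121). The groups overlapped, and the difference of 0.57 ± 0.19 did not pass (adjusted p = 0.18). gst-12, with 1.79 ± 0.99 CPM on SFN (n = 5) against 1.91 ± 0.70 CPM on DMSO (n = 6), had a value of -0.05 (95% interval -1.32 to 1.23). gst-39, with 5.57 ± 2.49 CPM on SFN against 4.35 ± 2.53 CPM on DMSO, had 0.27 (-0.65 to 1.20). gst-35, with 1.48 ± 1.11 CPM against 0.799 ± 0.486 CPM, had 0.93 (-0.50 to 2.37). The intervals of gst-12 and gst-39 leave out a rise beyond 1.23 and 1.20 on the log2 scale.

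In EU1 at day 12, 6 of the 7 genes rose, in a comparison where 11.2% of all genes were called higher. gst-24 ran from 114.7 to 218 CPM on SFN (median 153), against 27.1 to 46.6 CPM on DMSO (median 34.8). It rose by 2.15 ± 0.19 (edgeR adjusted p = 6.5e-07), with all 6 SFN libraries above all 6 DMSO libraries. gst-5 ran from 49.7 to 136 CPM on SFN (median 75.3), against 3.54 to 8.93 CPM on DMSO (median 7.60). It rose by 3.49 ± 0.30 (adjusted p = 8e-07), again with no overlap between the groups.

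The scarce genes of EU1 followed at day 12. gst-31 ran from 7.42 to 16.9 CPM on SFN (median 9.06), against 0 to 1.41 CPM on DMSO (median 0.161), a rise of 4.62 ± 0.53 (edgeR adjusted p = 4e-06). gst-37 ran from 5.35 to 23.98 CPM on SFN (median 11.7), while on DMSO 4 counts stood in 1 of 6 libraries, at 1.39 CPM, and the others had 0. Its fitted rise was 6.15 ± 0.68 (adjusted p = 2.3e-06), and 8.77 without DMSO replicate 4, the library with those counts, so its size is poorly fixed. With so few DMSO counts, gst-31 and gst-37 met the filter on low counts through their SFN libraries. gst-39 ran from 5.32 to 21.8 CPM on SFN (median 9.35), against 1.39 to 4.01 CPM on DMSO (median 2.28), and rose by 2.15 ± 0.43 (adjusted p = 0.0016). In all 3 genes every SFN library was above every DMSO library. The share of all genes whose groups were apart in this way is not given, for this or any other comparison.

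gst-35 and gst-12 were less steady in EU1 at day 12. gst-35 ran from 1.55 to 12.2 CPM on SFN (median 3.70), against 0.472 to 2.79 CPM on DMSO (median 1.18), with overlap. Its rise of 1.81 ± 0.52 (edgeR adjusted p = 0.018) was lost without SFN replicate 2 (adjusted p = 0.073) and with replicates 1 to 3 alone (adjusted p = 0.051). gst-12 ran from 0.925 to 11.3 CPM on SFN (median 3.58), against 0.708 to 2.15 CPM on DMSO (median 1.30), and its value of 1.40 ± 0.55 did not pass (adjusted p = 0.076). It passed without DMSO replicate 6, SFN replicate 5 or SFN replicate 6 of EU1 at day 12 (adjusted p = 0.024 to 0.039), and with replicates 1 to 3 alone (2.61, adjusted p = 0.032). SFN replicate 2 held the highest level of all 7 genes. Markers moved in these libraries too: 5 of 8 muscle and 5 of 8 intestine markers were higher, with muscle sums of 313 to 779 CPM on SFN against 201 to 403 CPM on DMSO and intestine sums of 331 to 602 CPM against 125 to 269 CPM, none at 0. Their part in the result was not tested.

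In PX991 at day 4, 5 of the 7 genes rose, while 0.347% of 10073 tested genes were called higher. gst-5 had 220, 136, 147 and 154 CPM on SFN, against 10.8, 16.6, 14.9 and 13.9 CPM on DMSO, a rise of 3.55 ± 0.25 (edgeR adjusted p = 1.4e-08). gst-37 had 34, 67, 40 and 24 counts on SFN, against 0 in all 4 DMSO libraries, and was at least 49.2-fold higher on SFN. gst-31 had 51, 38, 21 and 11 counts on SFN against 2 counts in 4 DMSO libraries, a ratio of 54.2 (95% counting interval 14.7 to 452). Its fitted value was 5.48 ± 0.74 (edgeR adjusted p = 0.00012). With so few DMSO counts, gst-31 and gst-37 met the filter on low counts through their SFN libraries, and their p-values depend on that filter. In these 3 genes each SFN library was well above each DMSO library.

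gst-35 had 14.4, 8.95, 12.8 and 3.98 CPM on SFN in PX991 at day 4, against 1.03, 0.739, 0.805 and 1.36 CPM on DMSO, and rose by 3.26 ± 0.58 (edgeR adjusted p = 0.0046). gst-39 had 25.7, 13.3, 18.4 and 15.9 CPM on SFN, against 3.08, 6.65, 2.82 and 3.64 CPM on DMSO, and rose by 2.17 ± 0.37 (adjusted p = 0.0026). Neither gene overlapped between the groups, but the share of all genes apart in this way is not given. gst-24, with 240, 151, 153 and 160 CPM on SFN against 101, 120, 88.1 and 83.4 CPM on DMSO, was higher in 4 of 4 SFN libraries, and its 0.87 ± 0.23 did not pass (adjusted p = 0.16). gst-12, with 6.34, 3.86, 6.41 and 6.47 CPM on SFN against 1.54, 2.59, 2.42 and 0.4545 CPM on DMSO, was likewise higher in 4 of 4, and its 1.77 ± 0.54 did not pass (adjusted p = 0.25).

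In PX991 at day 12, 4 of the 7 genes rose, and 2.43% of all genes were called higher. gst-5 had 108.8, 108.3, 60.3 and 73.7 CPM on SFN, against 40.4, 21.2, 15.3 and 25.2 CPM on DMSO, a rise of 1.74 ± 0.25 (edgeR adjusted p = 2e-04). gst-31 had 15.03, 18.1, 9.28 and 7.62 CPM on SFN, against 0, 1.49, 1.70 and 2.37 CPM on DMSO, a rise of 3.32 ± 0.61 (adjusted p = 0.0018). gst-37 had 15.6, 18.1, 21.7 and 6.17 CPM on SFN, against 0, 0.744, 2.55 and 0 CPM on DMSO, a rise of 4.33 ± 0.65 (adjusted p = 0.00042). These groups did not overlap, and the share of all genes apart in this way is not given. gst-37 was still scarce on DMSO, and without single DMSO libraries its fitted rise ran from 3.8 to 5.35. With so few DMSO counts, gst-31 and gst-37 met the filter on low counts through their SFN libraries.

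gst-35 at that age had 17.4, 15.6, 9.28 and 9.44 CPM on SFN in PX991, against 6.00, 0.372, 0.850 and 5.52 CPM on DMSO. Its rise of 2.02 ± 0.54 (edgeR adjusted p = 0.031) was lost without DMSO replicate 2 or 3 or SFN replicate 1 or 2 of PX991 at day 12 (adjusted p = 0.070 to 0.081). gst-24 had 183, 124, 169 and 91.1 CPM on SFN, against 138, 68.9, 96.8 and 84.4 CPM on DMSO, with overlap (0.50 ± 0.24, adjusted p = 0.28). gst-39 had 17.6 ± 5.4 CPM on SFN against 7.92 ± 4.60 CPM on DMSO (SD, n = 4 each), and its 1.11 ± 0.37 did not pass (adjusted p = 0.084). It passed without DMSO replicate 1, which had the highest control level, 14 CPM, or without SFN replicate 3 of PX991 at day 12 (adjusted p = 0.022 and 0.043). gst-12 had 10.2 ± 4.0 CPM on SFN against 3.06 ± 1.86 CPM on DMSO (1.72 ± 0.54, adjusted p = 0.070). It passed with DESeq2 (1.76, adjusted p = 0.027) and with no filter on low counts (1.72, edgeR adjusted p = 0.030).

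Markers moved with SFN in the PX991 day 12 libraries as well. Intestine sums were 437 to 758 CPM on SFN, against 224 to 364 CPM on DMSO, without overlap, and 1 of 8 intestine markers was called higher. Of the muscle markers 1 of 8 was higher, with sums of 282 to 880 CPM on SFN against 292 to 439.7 CPM on DMSO, and 2 of 8 neuron markers were lower, with sums of 309 to 385 CPM on SFN against 386 to 604 CPM on DMSO. None was at 0, and their part in the result was not tested.

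**Figure D4:**
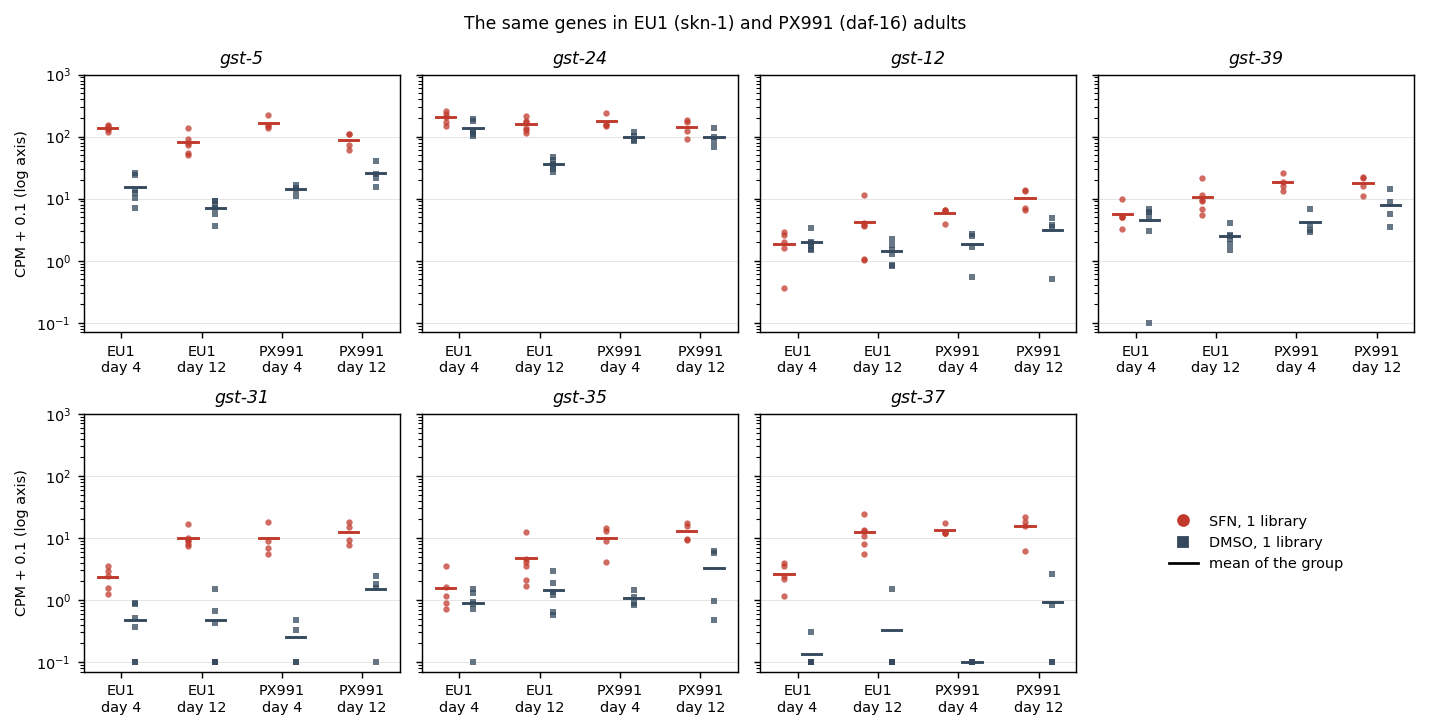
Level of each of the 7 genes in EU1 and PX991 at days 4 and 12, in CPM + 0.1 on a log axis, drawn as for N2 with SFN in red on the left and DMSO in dark on the right. The gst-5 groups are apart in all 4 pairs, whereas gst-12 and gst-39 overlap in EU1 at day 4 and are apart in PX991 at day 4.

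The difference between the mutants in the size of the response was tested as such, with both strains in 1 model. At day 4 all 7 fitted differences were negative, a smaller response in EU1 than in PX991. Their median was -1.88, beside -0.27 for 26 other GSTs and 0 for all genes. None of the 7 passed with edgeR or with DESeq2, and 0% of 11693 genes passed with edgeR. At an unadjusted p under 0.05 there were 4 of 7: gst-39 with -1.88 ± 0.62 (unadjusted p = 0.0041), gst-31 with -3.11 ± 1.26 (0.018), gst-35 with -2.32 ± 1.00 (0.026) and gst-12 with -1.79 ± 0.87 (0.047). Their edgeR adjusted p-values were 0.78 to 0.81. At the same unadjusted threshold 3 of 26 other GSTs were lower and 2 higher. The share of all genes at that threshold is not given here, so no weaker response in EU1 is read from this count. gst-5 and gst-24 had the smallest differences, -0.40 (95% interval -1.27 to 0.47) and -0.28 (-0.91 to 0.36).

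At day 12 the differences of 5 of the 7 genes were positive, a larger response in EU1 than in PX991. The median of the 7 was 1.25, beside 0.37 for 26 other GSTs and 0.02 for all genes. Only gst-24 passed, with 1.64 ± 0.32 (edgeR adjusted p = 0.029), in a comparison where 0.265% of genes passed in either direction. It was lost without SFN replicate 1, 2 or 4 or DMSO replicate 4 of EU1 at day 12, or without SFN replicate 2 or DMSO replicate 1 of PX991 at day 12 (adjusted p = 0.054 to 0.07). gst-5 had 1.73 ± 0.43 (adjusted p = 0.08) and passed without SFN replicate 6 of EU1 at day 12 (adjusted p = 0.046) and with DESeq2 (1.74, adjusted p = 0.014). EU1 replicates 4, 5 and 6 were collected at other times, and the labels do not say whether the strains were collected together, so strain and time of collection cannot be told apart.

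Against N2, the day 12 response of the mutants was smaller in all 7 genes. This is a description, since the N2 values are treated as having chosen the genes and the strains stand in separate tables. The median difference in log2 fold change was -1.64 for EU1 minus N2 and -3.21 for PX991 minus N2, beside -0.74 and -1.37 for 30 other GSTs and -0.12 and 0.01 for all genes. gst-5 had -1.52 ± 0.38 in EU1 and -3.21 ± 0.42 in PX991, and gst-24 had -1.07 ± 0.31 and -2.67 ± 0.34. gst-12 and gst-35 were the genes with the largest shortfall in EU1, -3.0 ± 0.71 and -3.54 ± 0.78. At day 4 the medians were -1.56 for EU1 minus N2 and 0.24 for PX991 minus N2, and gst-5 was close to N2 in both, with -0.39 ± 0.40 and 0.01 ± 0.42.

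**Figure D5:**
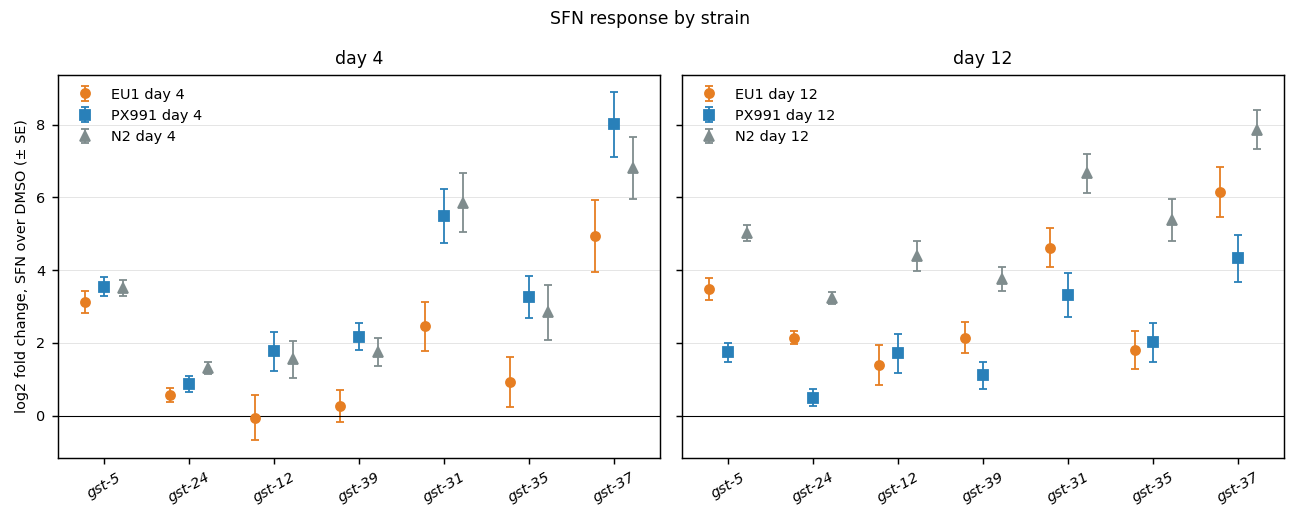
Log2 fold change of SFN over DMSO with SE for each of the 7 genes in EU1, PX991 and N2, at day 4 on the left and day 12 on the right. At day 4 gst-12 and gst-39 are near 0 in EU1, with -0.05 and 0.27, and at day 12 the N2 value is the highest of the 3 strains for each gene.

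On DMSO the mutants parted with age, though strain and time of collection cannot be told apart here either. At day 4 none of the 7 genes passed between EU1 and PX991 with edgeR (1 at an unadjusted p under 0.05, gst-24 with 0.51, and 0 with DESeq2), while 15.5% of all genes did. At day 12, 3 of 7 were lower in EU1, and 20.5% of all genes passed in either direction. gst-5 had 3.54 to 8.93 CPM in EU1 (median 7.60), against 40.4, 21.2, 15.3 and 25.2 CPM in PX991, a difference of -1.89 ± 0.34 (edgeR adjusted p = 0.00022). gst-24 had 27.1 to 46.6 CPM in EU1, against 68.9 to 138 CPM in PX991 (-1.41 ± 0.23, adjusted p = 8.7e-05). The ranges of both genes were apart, though how many of all genes were likewise apart is not given. gst-39 had 1.39 to 4.01 CPM in EU1, against 3.40 to 14 CPM in PX991 (-1.78 ± 0.46, adjusted p = 0.005), which was lost without DMSO replicate 1 of PX991 at day 12 (adjusted p = 0.10). Without single libraries 3 further genes came in at day 12: gst-31 without DMSO replicate 5 of EU1 (adjusted p = 0.049), gst-35 without DMSO replicate 2 of PX991 (0.031) and gst-37 without DMSO replicate 4 of EU1 (0.017). Intestine marker sums on DMSO averaged 194 CPM in EU1 against 314 CPM in PX991 at day 12, and 2331 against 1704 CPM at day 4. Muscle sums averaged 268 against 358 CPM at day 12, and 1240 against 989.5 CPM at day 4. What part these had in the strain differences was not tested.

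Within EU1, gst-24 fell with age on DMSO, to 35.8 ± 7.3 CPM at day 12, against 137 ± 38 CPM at day 4 (SD, n = 6 each), a log2 change of -1.92 ± 0.19 (edgeR adjusted p = 1.9e-07). gst-5 fell to 7.03 ± 2.14 CPM at day 12, against 15.4 ± 7.5 CPM at day 4 (-1.12 ± 0.33, adjusted p = 0.009), and this was lost with replicates 1 to 3 alone (-0.77, adjusted p = 0.15). These 2 of 7 genes passed where 46% of all genes changed in either direction. In these libraries the intestine sums averaged 194 CPM at day 12, against 2331 CPM at day 4, and the muscle sums 268 CPM against 1240 CPM. In PX991 on DMSO they were 314 against 1704 CPM for intestine and 358 against 989.5 CPM for muscle. What part these shifts have in the changes with age was not tested. gst-39 had -0.92 ± 0.46 (adjusted p = 0.10) in EU1 and passed without DMSO replicate 3 of EU1 at day 4 (adjusted p = 0.023).

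Within PX991 on DMSO, 3 of the 7 genes were higher at day 12, and each of these calls was lost without single libraries. gst-5 rose to 25.5 ± 10.7 CPM at day 12, against 14.04 ± 2.45 CPM at day 4 (SD, n = 4 each; 0.94 ± 0.28, edgeR adjusted p = 0.012), which was lost without DMSO replicate 1 of day 12 (adjusted p = 0.12). gst-39 (1.05 ± 0.41, adjusted p = 0.048) and gst-37 (adjusted p = 0.047) also passed upward, where 36.1% of all genes changed in either direction. For gst-39 the call was lost without DMSO day 12 replicate 1 or 4 or DMSO day 4 replicate 1, 3 or 4 of PX991 (adjusted p = 0.081 to 0.36). For gst-37, which had 5 counts at day 12 and 0 at day 4, it was lost without DMSO day 12 replicate 2 or 3 or any one DMSO day 4 library (adjusted p = 0.069 to 0.16). With these DMSO counts, gst-37 met the filter on low counts through its SFN libraries. gst-31 passed without DMSO day 12 replicate 1 (adjusted p = 0.022), and gst-35 without DMSO day 12 replicate 2 or 3 (0.013 and 0.048). gst-24 was at 97.0 ± 29.6 CPM at day 12 against 98.1 ± 16.2 CPM at day 4 (0.04, 95% interval -0.47 to 0.54).

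The change with age on DMSO differed between the mutants in a test added after the data were seen. Strain and time of collection cannot be told apart in that test. gst-24 had a difference of -1.92 ± 0.32, EU1 minus PX991 (edgeR adjusted p = 0.0011), and gst-5 one of -2.02 ± 0.47 (adjusted p = 0.012), 2 of 7 where 5.94% of all genes passed in either direction. The call for gst-5 was lost without DMSO replicate 1 of PX991 at day 12 (adjusted p = 0.058). gst-39 had -1.94 ± 0.65 (adjusted p = 0.066) and passed without DMSO day 12 replicate 2 or DMSO day 4 replicate 3 of EU1 or DMSO day 12 replicate 3 of PX991 (adjusted p = 0.022 to 0.048).

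On SFN, gst-5 fell with age in both mutants. The intestine marker sums were lower too, and averaged 467 CPM at day 12 against 2361 CPM at day 4 in EU1 and 593 against 1938 CPM in PX991. gst-5 was at 80.4 ± 31.4 CPM at day 12 in EU1 (n = 6), against 136 ± 15 CPM at day 4 (n = 5), a change of -0.76 ± 0.27 (edgeR adjusted p = 0.033). In PX991 it was at 87.8 ± 24.6 CPM at day 12, against 164 ± 38 CPM at day 4 (n = 4 each; -0.87 ± 0.21, adjusted p = 0.0041), the only 1 of the 7 to pass there, where 30.2% of all genes changed in either direction. In EU1, gst-31 (2.19 ± 0.46, adjusted p = 0.00078), gst-37 (2.29 ± 0.52, adjusted p = 0.0015) and gst-35 (1.6 ± 0.55, adjusted p = 0.026) rose with age on SFN, so that 4 of 7 passed where 34.3% of all genes did. gst-31 was at 10.03 ± 3.47 CPM at day 12 against 2.21 ± 0.93 CPM at day 4, and gst-37 at 12.3 ± 6.5 CPM against 2.53 ± 1.08 CPM.

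A pair of these EU1 calls rested on single libraries. The fall of gst-5 was lost without SFN day 12 replicate 3, 4, 5 or 6 or SFN day 4 replicate 2, 3 or 5 (edgeR adjusted p = 0.057 to 0.093) and with replicates 1 to 3 alone (adjusted p = 0.25). The rise of gst-35 was lost without SFN day 12 replicate 2 or SFN day 4 replicate 3, 4, 5 or 6 (adjusted p = 0.060 to 0.12) and with replicates 1 to 3 alone (adjusted p = 0.23). gst-24 came in without SFN day 12 replicate 2 (-0.47, adjusted p = 0.037), and gst-39 without SFN day 12 replicate 5 (1.24, adjusted p = 0.032).

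Among the other GSTs, gst-4 was called higher on SFN in 6 of the 9 comparisons of SFN with DMSO. gst-10, which conjugates the lipid peroxidation product 4-hydroxynonenal, and gstk-1, of the kappa class, were called in 5 of 9, and gst-6 and gst-20 in 4 of 9. gst-4 rose in PX991 by 1.40 ± 0.24 at day 4 and 1.73 ± 0.33 at day 12 (edgeR adjusted p = 0.0026 and 0.0029), and it did not pass in EU1 (0.44 ± 0.71 and 1.77 ± 0.79, adjusted p = 0.83 and 0.12). gst-10 and gst-6 rose in EU1 at day 12 by 3.21 ± 0.75 and 3.42 ± 0.64 (adjusted p = 0.0064 and 0.00098). The only falls were in PX991 at day 12, of gst-7 by -0.70 ± 0.16 (adjusted p = 0.0092) and of gsto-3, an omega-class GST, by -1.16 ± 0.28 (adjusted p = 0.017). In all, 2 of 30 fitted GSTs outside the 7 rose in N2 at day 2, 5 at day 4, 8 at day 8, 18 at day 12 and 17 at day 16. In the mutants it was 0 of 21 in EU1 at day 4 by edgeR (4 at an unadjusted p under 0.05, and 1 by DESeq2), 7 of 21 at day 12, 2 of 15 in PX991 at day 4 and 1 of 15 at day 12.

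Genes that supply and export glutathione were called in some of the 9 comparisons. Of gcs-1, gss-1, gsr-1 and E01A2.1, which make or recycle glutathione, gcs-1, the rate-limiting ligase, came closest in N2 at day 12 with 0.31 ± 0.12 (edgeR adjusted p = 0.06). gss-1, the synthetase, rose by 0.34 ± 0.11 in EU1 at day 12 (adjusted p = 0.028), and E01A2.1 fell in N2 at day 4 (-0.61 ± 0.13, adjusted p = 0.0013). These were the only calls of that list in the 9 comparisons. Of the 8 MRP export pumps, 6 were called in at least 1 comparison, and in N2 at day 16, 3 were higher and 1 lower. mrp-2 was called in 3 of 9: 1.01 ± 0.30 at day 2, 1.35 ± 0.20 at day 12 and 0.77 ± 0.20 at day 16 in N2 (adjusted p = 0.043, 1.1e-06 and 0.0047). Among 8 regulators, wdr-23, the repressor of SKN-1, was higher in N2 by 0.56 ± 0.11, 0.41 ± 0.11 and 0.35 ± 0.11 at the same ages (adjusted p = 0.0029, 0.0028 and 0.015). At those ages 2.7%, 13.8% and 11.9% of all genes were called higher. Of the other regulators, mdt-15 was called higher in 2 of 9 comparisons, and elt-7 and elt-2 in 1 each. sek-1 was called higher in 1 and lower in 1, and pmk-1 lower in 1. In the mutants wdr-23 had values from -0.14 to 0.26 (adjusted p = 0.26 or more). skn-1 itself ran from -0.33 ± 0.12 in EU1 at day 12 (adjusted p = 0.052) to 0.20 ± 0.09 in N2 at day 4 (adjusted p = 0.15).

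Over the 18 group means of the N2 treatment table and the mutants, the 8 genes outside the family whose level ran most like the mean of the 7 were stdh-2, a steroid dehydrogenase family member (Pearson r = 0.949), the cytochrome P450s cyp-13A3 and cyp-13A10 (0.941 each), the cadmium-responsive cdr-4 (0.911), F21C10.9 (0.898), ZK697.14 (0.887), C15B12.8 (0.880) and Y77E11A.12 (0.872). These are descriptions among 11506 genes, over points that share libraries, treatment and age. The members' own r with their mean ran from 0.944 to 0.981, apart from gst-24, which had 0.824 and was the member with the highest level on DMSO. As the mean is made from the members, these values cannot be set against those of outside genes.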

How the data were processed

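The files held raw read counts per gene, which the authors made with featureCounts (Subread 2.0.2; build WBcel235), as the submitters' processing notes list. Ensembl release 108 stands in the header of the N2 treatment table, with counting over exons and no strand setting. The aligner is not given in the sources used here. N2 treatment libraries, N2 trials 2 and 3, and the mutants stood in 3 tables, and CPM was scaled by TMM within each. The exon lengths in the deposited tables gave CPM per kilobase.

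Tests used edgeR 4.0.16 in R 4.3.3: filterByExpr, TMM, robust quasi-likelihood F tests and Benjamini-Hochberg adjustment over all genes of a comparison, with an adjusted p under 0.05 as the threshold. filterByExpr took the SFN and DMSO libraries of a fit together, so genes scarce on DMSO could pass it through SFN libraries alone. gst-12, gst-31, gst-35 and gst-37 did not pass it in trials 2 and 3, which held DMSO alone. Their p-values in the mutants depend on that filter. EU1 had a term for collection (replicates 1 to 3 together, 4, 5 and 6 each alone), and trials 2 and 3 a term for trial. DESeq2 1.42.0 was an alternative. Positions came from Ensembl release 115 of the same build. The fits were tested on simulated data.

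The 7 genes and the gene lists were chosen with earlier results of these data known. Replicates are biological per the labels' protocols, but most were aged together, so p-values measure the spread between such libraries. None of 199 pairs of replicates was identical (chi-square per degree of freedom 2.21 to 250). Same-numbered SFN and DMSO libraries deviated together in EU1 in 11 of 11 pairs (r = 0.109 to 0.452), and 7 matched best with their own number. For the replicates collected alone, number and collection coincide, so their r cannot show pairing by number. Within the joint collection, replicate 2 matched best with its own number at days 4 and 12. Replicate 3 at both ages and replicate 1 of day 12 did not. Pairing by number was therefore not settled, and the main EU1 fit had no term for it. The other genes named were the GSTs outside the 7 called higher in at least 4 of 9 comparisons or lower in any, list members called in at least 3, and the 8 most alike genes. Intervals and floors cover counting error only.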

Additional observations from a re-analysis of the deposited data

Results flagged for a closer look

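Of 145 combinations of gene and group tested for 1 library lying far from the rest (Dixon's test; chance alone gives about 1 in 20), 21 stood out. In EU1 on SFN at day 12, replicate 2 was far above the other 5 libraries for gst-12 (11.26 CPM), gst-31 (16.89 CPM), gst-35 (12.17 CPM) and gst-39 (21.8 CPM).

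In PX991 on SFN at day 4, gst-24 was high in replicate 1 (240.3 CPM), gst-37 high in replicate 3 (17.08 CPM) and gst-12 low in replicate 2 (3.86 CPM). In EU1 at day 4, gst-39 was high in SFN replicate 5 (9.782 CPM) and gst-12 high in DMSO replicate 2 (3.277 CPM). In N2 on SFN, gst-5 was high in replicate 1 of day 12 (350.5 CPM) and gst-35 high in replicate 1 of day 2 (10.03 CPM).

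In N2 on DMSO the single libraries were gst-24 replicate 3 of day 12, low at 35.53 CPM, gst-39 replicate 4 of day 8 at 7.847 CPM, gst-31 replicate 1 of day 12 at 1.406 CPM and replicate 4 of day 2 at 2.567 CPM. The others were gst-35 replicate 1 of day 4 at 1.791 CPM and gst-37 replicate 3 of day 16 at 0.9585 CPM. In the further DMSO trials they were gst-24 (193.4 CPM) and gst-12 (2.462 CPM) in replicate 3 of day 4 in trial 2, gst-5 in replicate 3 of day 2 in trial 3 (28.08 CPM) and gst-12 in replicate 4 of day 2 in trial 3, low at 0.9499 CPM. gst-24 and gst-12 thus shared 1 library of trial 2.

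The strains differed in 3 values by a test of the difference itself (edgeR, adjusted over all genes). The change on DMSO with age differed between EU1 and PX991 by -1.92 for gst-24 and by -2.02 for gst-5, and the response to SFN at day 12 differed by 1.64 for gst-24. The value of 1.64 was lost without any of several single libraries (adjusted p = 0.054 to 0.07), and that of gst-5 without 1 (0.058). The test on DMSO was added after the data were seen, and strain and time of collection cannot be told apart.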

How the results depend on the processing

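Counts of the 7 genes past the threshold kept within 1.5 times of those reported, apart from the following. With DESeq2, 5 passed for DMSO with age in PX991 and 2 for the EU1 minus PX991 response at day 12, and the N2 day 4 median was 3.00. With no filter on low counts, 4 passed in EU1 at day 4, 2 and 1 for the EU1 minus PX991 response at days 12 and 4, and 1 for the DMSO level at day 4. With EU1 replicates 1 to 3 only, 1 passed in EU1 at day 4 and 1 for DMSO with age. The cause was not tested.

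Leaving out single libraries gave 1 to 2 in EU1 at day 4, 5 to 7 at day 12, 5 to 5 and 3 to 5 in PX991 at days 4 and 12, 0 to 0 and 0 to 2 for the response difference at days 4 and 12, 0 to 0 and 2 to 4 for the DMSO level, 2 to 3 (EU1) and 1 to 3 (PX991) for DMSO with age, 1 to 3 for its difference, 2 to 4 (EU1) and 1 to 1 (PX991) for SFN with age, and 1 to 2 for the slope. N2 medians ran from 2.84 to 3.19, 2.24 to 3.45, 2.86 to 3.32, 4.90 to 5.05 and 4.93 to 5.51 at days 2, 4, 8, 12 and 16. Medians against N2 ran from -1.84 to -1.26 and -2.01 to -1.36 (EU1, days 4 and 12) and from 0.07 to 0.47 and -3.30 to -2.80 (PX991).

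Directions reversed only in values that did not pass. Without single libraries, gst-12 ran from -0.47 to 0.32 in EU1 at day 4, from -0.93 to 0.12 for the response difference at day 12 and from -0.25 to 0.46 for the DMSO level at day 4. gst-35 ran from -0.92 to 0.23 for that response difference. gst-31 (-0.86 to 0.38) and gst-37 (-1.59 to 2.65) turned for DMSO with age in EU1, gst-37 for the DMSO level at day 4 (-0.08 to 1.57) and SFN with age in PX991 (-0.01 to 0.52), gst-39 in EU1 at day 4 (-0.04 to 0.45) and gst-5 for the DMSO level at day 4 (-0.15 to 0.25). gst-24 on DMSO with age in PX991 ran from -0.21 to 0.18, and was -0.05 with no filter and -0.03 with the replicate block, and 0.10 on SFN with age in EU1 replicates 1 to 3. The gst-39 slope was -0.03 in trial 3 alone.

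The replicate block, in N2 and PX991 where same-numbered libraries did not deviate together (r above 0.1 in 2 of 20 and 1 of 8 pairs, 6 and 2 best with their own number), brought in gst-24 in PX991 at day 4 (0.82, adjusted p = 0.019) and lost gst-39 on DMSO with age in PX991 (0.93, adjusted p = 0.068). It changed no other call within a strain, and none in EU1. As a block within each strain, added after the data were seen, it kept gst-24 in the response difference at day 12 (1.62, adjusted p = 0.0073) and gst-24 and gst-5 in the difference of the DMSO change (-1.87 and -1.92, adjusted p = 0.00032 and 0.021), and brought in none of the 7. The DMSO levels between strains were not fitted with it. Without the collection term gst-12 passed in EU1 at day 12 (adjusted p = 0.042).

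Genes called higher in all moved to 80 (DESeq2), 13 (DESeq2 size factors), 171 (EU1 replicates 1 to 3), 10 (no collection term) and 136 (no filter) from 22 in EU1 at day 4, and to 424 from 1250 at day 12 with EU1 replicates 1 to 3. In PX991 DESeq2 gave 63 for 35 and 382 for 245 at days 4 and 12, and no filter 72 at day 4. In N2 DESeq2 gave 736 for 344 and 1603 for 899 at days 2 and 4, and no filter 551 for 362 at day 8. Without the pair of N2 DMSO libraries that held fewest genes, more genes were called lower in N2. They were 624 for 207, 1063 for 412, 1743 for 635 and 1791 for 949 at days 2, 4, 12 and 16. With DESeq2 size factors the median of all genes for EU1 minus N2 at day 4 was -0.24 in place of -0.13. gst-12, gst-31, gst-35 and gst-37 had few counts on DMSO, which limits their folds.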
